A study of Mus musculus with 6 samples.

Results

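The genes described here encode 8 receptors that bind bone morphogenetic proteins (BMPs), activins and related ligands beside Acvr1, measured by RNA-seq in mouse neurospheres. They were given by name as 4 type I receptors (Bmpr1a, Bmpr1b, Acvr1b and Acvrl1), 3 type II receptors (Bmpr2, Acvr2a and Acvr2b) and the co-receptor Eng. All 8 were among the 17551 genes of the deposited count table and among the 14643 genes that had enough counts to be tested. Neurospheres are floating cultures enriched in neural stem and progenitor cells. All 6 cultures were on the C57BL/6 background and grew in DMEM/F12 medium to which N2, B27, EGF and FGF were added. The G328V group held 3 libraries with the genotype label ACVR1 G328V (replicates 1, 2 and 3) and the WT group 3 libraries with the label ACVR1 WT (replicates 1, 3 and 70A). The submitters abbreviate the groups as NPAC and NP, which the labels do not spell out, nor do they name the animals or clones behind the cultures. The comparison asked whether receptor genes other than Acvr1 differed between neurospheres with mutant and with wild-type ACVR1.

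Ligands of this family bring together type I and type II receptor kinases, and the type II receptor phosphorylates the type I receptor, which then phosphorylates SMAD proteins. Bmpr1a, Bmpr1b, Acvr1 and Acvrl1 products act on the BMP-branch SMADs, whereas Acvr1b products act on Smad2 and Smad3 downstream of activins. Bmpr2 binds BMPs, and the activin type II receptors Acvr2a and Acvr2b are shared by activins and BMPs. In brain development BMP receptors are known for roles in dorsal patterning and in the astrocyte fate of progenitors.

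Levels are in CPM, counts scaled to a common library size after TMM, a trimmed-mean correction for composition. Within a group, library values are listed by replicate, as 1, 2 and 3 for G328V and as 1, 3 and 70A for WT. Library totals were 115953495 to 182626231 counts in G328V and 120457925 to 191115532 in WT, so 1 count equalled 0.00544 to 0.00831 CPM. Some stem cell genes were present in every library, with Sox2 at 145 to 237 CPM in G328V and 134 to 179 CPM in WT, and Vim at 1718 CPM or more in each. Others were uneven. Slc1a3 had 11.6, 14.3 and 0 CPM in G328V, against 55.1, 0.00568 and 0.155 CPM in WT. Msi1 had 13.2, 22.1 and 5.70 CPM in G328V, against 40.6, 0.716 and 1.22 CPM in WT. Prom1, another stem cell gene and the 1 of 9 tested on that list with an unadjusted edgeR p under 0.05, had 133, 288 and 190.3 CPM in G328V, against 68.8, 10.2 and 7.92 CPM in WT, and Nes had 106 to 273 CPM in G328V and 91.2 to 963 CPM in WT. Fabp7, a radial glia gene, lay between 2.64 and 65.1 CPM in G328V, against 1313, 0.182 and 0.575 CPM for the WT cultures, and Hes5 did not exceed 0.244 CPM anywhere. WT replicate 1 stood apart by Fabp7 and by the oligodendrocyte lineage genes Olig1 and Olig2. It had 615 CPM of Olig1 and 416 CPM of Olig2, against at most 1.07 and 0.938 CPM in the other 5 libraries. Other genes of that lineage did not set it apart in this way. WT replicate 1 had the lowest Pdgfra of all libraries, at 9.65 CPM, with Cspg4 at 3.275 CPM and Sox10 at 0.0569 CPM. Pdgfra reached 158 CPM in G328V replicate 2, and Cspg4 61.9 CPM and Sox10 65.2 CPM in G328V replicate 1. Acvr1 itself had 244, 250.1 and 650.1 CPM in G328V, against 42.5, 100 and 90.7 CPM in WT. Its log2 difference was 2.30 ± 0.55 (SE, adjusted p = 0.997 by edgeR's quasi-likelihood test), and gene counts do not show the mutated base. In G328V Acvr1 had 1.13 to 1.21 HTSeq counts per Cufflinks fragment, against 1.94 in WT. Its difference would thus be larger in Cufflinks fragments. Xist measured 444 to 795 CPM in G328V and no more than 1.18 CPM in WT. The Y-linked gene Ddx3y measured no more than 0.0326 CPM in G328V, against 17.7 to 51.0 CPM in WT. In every difference given here, genotype and sex-linked expression cannot be told apart.

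None of the 8 receptor genes passed edgeR's quasi-likelihood test after Benjamini-Hochberg adjustment over all tested genes. In that test 0 of 14643 genes (0%) passed at an FDR of 0.05. Xist and Ddx3y did not pass it either (adjusted p = 0.254 and 0.718), though their groups did not overlap. Not passing therefore does not show that a gene was unchanged. The smallest adjusted p among the 8 was 0.997, and 0 of the 8 had an unadjusted edgeR p under 0.05, against 4.06% of all tested genes (1.88% higher and 2.17% lower in G328V). DESeq2 called 0 of the 8 (1.05% of the 16521 genes it tested) and gave 1 of them, Acvr2b, an unadjusted p under 0.05 (6.95% of genes), and limma-voom gave 0 at either threshold (0% and 4.03%). Log2 differences, G328V minus WT, were positive for 5 genes and negative for 3, with a median of 0.19 beside -0.0039 over all tested genes. The groups did not overlap for 1 of the 8 genes, Acvr2b, with G328V higher; over all tested genes 9.7% did not overlap, 5.25% with G328V higher and 4.45% with G328V lower.

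**Figure D1:**
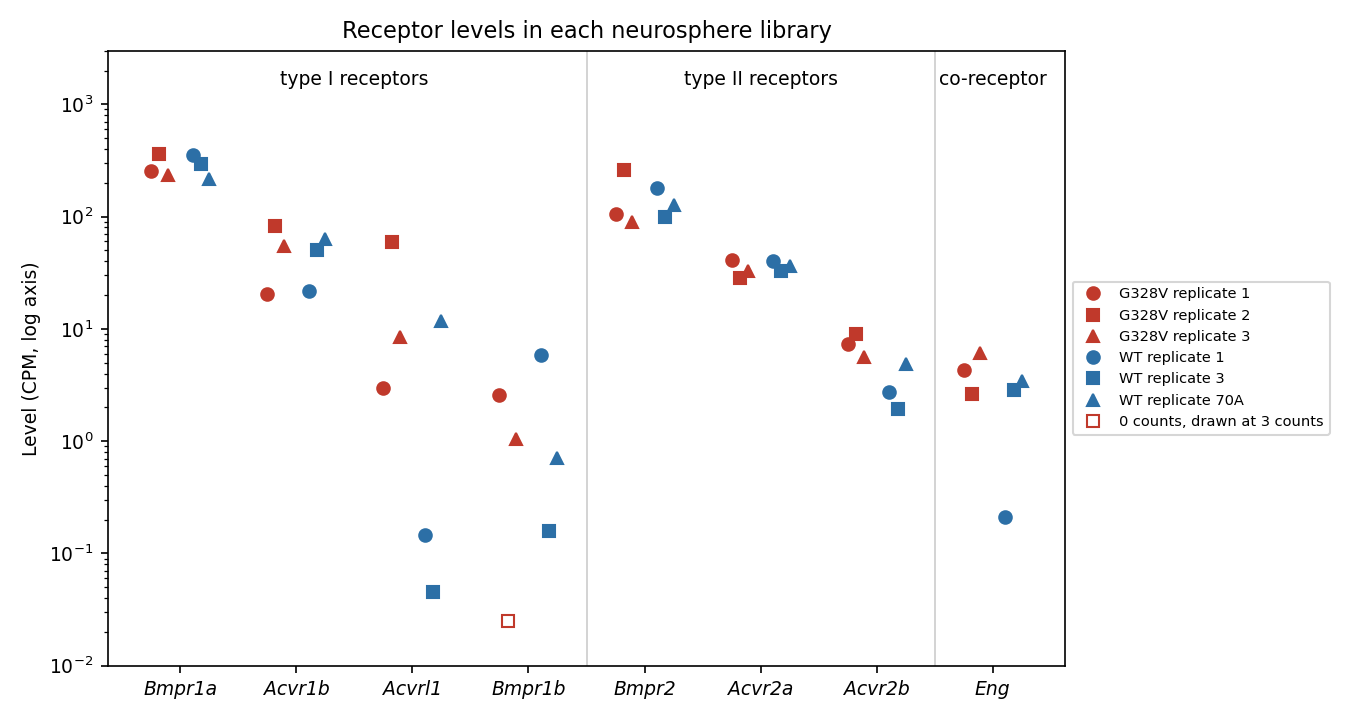
Level of each receptor gene in CPM on a log axis, with 1 point per library; red points are the 3 G328V libraries and blue points the 3 WT libraries, and the open square is 0 counts of Bmpr1b in G328V replicate 2, drawn at 3 counts. CPM compares libraries within a gene and is not corrected for gene length. Bmpr1a and Acvr2a lay close together in all 6 libraries, Acvr2b separated the groups, and Acvrl1 and Bmpr1b were spread over more than 2 orders of magnitude.

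Promoter windows are shown for a pair of genes with steady levels and a pair with uneven levels, which also hold many and few CG dinucleotides. RefSeq promoter windows (GRCm38.p6, 250 bases before to 50 bases after a transcript start) were found by symbol for 7 of the 8 genes, all but Acvrl1. Each is printed 5′ to 3′ on the gene's strand, with CG dinucleotides in capitals.
Bmpr1a (chr14:34502497-34502796, minus strand): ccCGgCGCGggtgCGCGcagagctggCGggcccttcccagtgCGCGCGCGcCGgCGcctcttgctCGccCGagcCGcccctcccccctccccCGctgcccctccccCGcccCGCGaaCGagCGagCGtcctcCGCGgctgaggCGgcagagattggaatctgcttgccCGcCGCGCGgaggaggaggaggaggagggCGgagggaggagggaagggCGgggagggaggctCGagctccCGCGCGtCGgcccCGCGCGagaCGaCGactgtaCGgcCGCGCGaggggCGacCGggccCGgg
Acvr2a (chr2:48813859-48814158, plus strand): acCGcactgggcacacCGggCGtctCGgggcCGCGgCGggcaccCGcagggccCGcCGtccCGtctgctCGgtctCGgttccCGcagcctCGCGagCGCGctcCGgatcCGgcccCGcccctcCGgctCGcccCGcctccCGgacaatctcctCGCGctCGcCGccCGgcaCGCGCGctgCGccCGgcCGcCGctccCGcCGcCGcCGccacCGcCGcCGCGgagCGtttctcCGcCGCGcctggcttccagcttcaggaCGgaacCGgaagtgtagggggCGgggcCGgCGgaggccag
Bmpr1b (chr3:141982215-141982514, minus strand): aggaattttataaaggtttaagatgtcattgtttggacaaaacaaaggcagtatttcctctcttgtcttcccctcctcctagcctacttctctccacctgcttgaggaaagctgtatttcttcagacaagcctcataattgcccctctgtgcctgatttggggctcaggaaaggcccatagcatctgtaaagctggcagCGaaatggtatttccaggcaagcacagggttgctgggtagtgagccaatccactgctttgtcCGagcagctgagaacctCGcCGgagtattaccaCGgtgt
Eng (chr2:32646345-32646644, plus strand): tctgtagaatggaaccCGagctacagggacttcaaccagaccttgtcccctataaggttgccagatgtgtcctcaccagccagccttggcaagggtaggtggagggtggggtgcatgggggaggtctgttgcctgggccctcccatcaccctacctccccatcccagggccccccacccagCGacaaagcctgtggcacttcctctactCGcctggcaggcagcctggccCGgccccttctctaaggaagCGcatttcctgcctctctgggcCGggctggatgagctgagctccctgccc
The Bmpr1a and Acvr2a windows held 48 and 54 CG dinucleotides, more than 97.8% and 99.4% of the 13119 windows of tested genes, whose median was 20 (quartiles 10 and 28). The Acvr1b window also held many, 51, while that gene ranged 3.99-fold over the libraries, against 1.70-fold for Bmpr1a and 1.45-fold for Acvr2a. The Acvr2b window held 27 and the Bmpr2 window 23. The Bmpr1b window shown held 5 and its other windows 6 each, and the Eng window held 6, fewer than most windows of tested genes. All Bmpr1b windows lie inside the gene, whose 5′ end is at 142169425, and no window was found at that end. The Bmpr1a and Bmpr2 windows also lie inside their genes, whose 5′ ends are at 34503341 and 59763400. The CG counts describe 7 genes and were not tested against the levels of these genes.

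Bmpr1a, a type I receptor for BMPs, was the most abundant of the 8 genes per length of transcript and was even between the groups. The gene lies on chromosome 14 from 34410734 to 34503341 on the minus strand (GRCm38). It had 255, 364 and 236 CPM across the G328V cultures, against 357, 291 and 214 CPM across the WT cultures. The groups covered nearly the same range, with means of 285 ± 68.9 CPM in G328V and 288 ± 71.5 CPM in WT (SD, n = 3 each). The log2 difference was -0.014 ± 0.30 (SE), and its 95% interval ran from -0.74 to 0.71. The sign was positive without G328V replicate 1, G328V replicate 3 or WT replicate 1, at 0.061, 0.10 and 0.15, and with total-count scaling. Per kilobase of exon Bmpr1a was at 33.8 to 57.3 CPM in the 6 libraries, above every other member in every library. Exons of Gm17110, an antisense gene, overlap 290 bases of its exons, and the counting's use of strand is not given.

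Bmpr1b, the close relative of Bmpr1a that is known from astrocyte and cartilage development, was low and uneven. The gene spans chromosome 3 from 141837136 to 142169425, minus strand. Its counts were 439, 0 and 194 across the G328V cultures, and 718, 28 and 124 across the WT cultures, which gave 2.56, 0 and 1.05 CPM in G328V and 5.83, 0.159 and 0.712 CPM in WT. The highest library was WT replicate 1 and the next G328V replicate 1, so each group held high and low libraries. With the 0 counts of G328V replicate 2 set to a floor of 3 counts, or 0.0249 CPM, WT replicate 1 was 234-fold higher. The floor covers counting error only and treats counts as independent. The median gene of G328V replicate 2 had 1.955 HTSeq counts per Cufflinks fragment, so 234-fold is not a lower bound. The log2 difference was -0.89 ± 2.13 (SE), and 1.46 without WT replicate 1. Of 8 astrocyte genes listed and tested, 0 passed edgeR's test, and those with the smallest unadjusted p were Apoe, Sparcl1 and Gfap. Apoe had 53.5, 32.5 and 1.25 CPM in G328V, against 0.886, 0.813 and 2.95 CPM in WT. Sparcl1 was highest in G328V replicate 2, at 1666 CPM, where Bmpr1b had 0 counts. Gfap (10.05 CPM), Apoe, Aqp4 and S100b were highest in G328V replicate 1, the next-highest library of Bmpr1b. Slc1a2 was highest in WT replicate 1, the top library of Bmpr1b, at 15.3 CPM. Aldh1l1 and Gja1 were highest in WT replicates 3 and 70A. The summed level of the astrocyte list was 317 to 1728 CPM in G328V and 215 to 417 CPM in WT, and DESeq2 called 1 of them, Apoe. Their part in the Bmpr1b values was not tested.

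Acvr1b, the type I receptor for activins, did not separate the groups. Its position is chromosome 15 from 101174067 to 101213684, plus strand. It had 20.6, 82.2 and 54.4 CPM across the G328V cultures, against 21.6, 49.96 and 63.8 CPM across the WT cultures. The low libraries were replicate 1 of each group, and the other 4 lay between 49.96 and 82.2 CPM. The log2 difference was 0.22 ± 0.61 (SE), and it was -0.27 without G328V replicate 2 and -0.14 without WT replicate 1.

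Acvrl1, a type I receptor best known from endothelial cells, where it binds the ligands encoded by Gdf2 and Bmp10, had the widest spread among the 7 members with counts in every library. The locus is on chromosome 15 from 101128522 to 101145336, plus strand, next to Acvr1b. Its counts were 511, 7106 and 1568 across the G328V cultures, and 18, 8 and 2024 across the WT cultures. In CPM these were 2.98, 59.0 and 8.53 in G328V and 0.146, 0.0455 and 11.6 in WT, a 1298-fold range. WT replicate 70A lay above G328V replicates 1 and 3, whereas WT replicates 1 and 3 were the lowest of the 6, so the groups overlapped.

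The log2 difference of Acvrl1 was 2.58 ± 2.12 (SE) and did not pass edgeR's test (adjusted p = 0.997). Without WT replicate 70A it was 7.91, without G328V replicate 2 it was 0.54, and with limma-voom on all 6 libraries it was 4.41. DESeq2 called it without WT replicate 70A (adjusted p = 7.89e-06). Adjusted p-values over the alternative settings of all tools ran from 7.89e-06 to 1, and DESeq2 gave none in the 3 fits that left out a G328V library.

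Eng encodes endoglin, a co-receptor that presents ligands to the Acvrl1 product and is used as a marker of endothelial cells and of some mesenchymal cells. It lies on chromosome 2 from 32646595 to 32682669, plus strand. It had 4.31, 2.64 and 6.09 CPM across the G328V cultures, against 0.211, 2.88 and 3.42 CPM across the WT cultures. WT replicate 1 was the low library, with 26 counts, and G328V replicate 2 lay below the other WT libraries. The log2 difference was 1.00 ± 1.08 (SE), and it was 0.45 without WT replicate 1, 1.56 with limma-voom, and on replicates 1 and 3 alone 2.70 with a replicate block and 1.75 without it. The log2 ratio of Eng to Acvrl1 counts was 0.53, -4.48 and -0.49 across the G328V cultures, and 0.52, 5.90 and -1.76 across the WT cultures. The group means of this ratio differed by -3.03 (exact permutation p = 0.5, two-sided), and by -0.86 without WT replicate 3, -1.53 without G328V replicate 2 and -4.69 without WT replicate 70A.

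Endothelial genes were uneven. Pecam1 did not exceed 0.972 CPM and Tie1 0.0325 CPM in any library. Egfl7 was at 4.42 to 8.40 CPM in G328V and 3.17 to 6.65 CPM in WT. Kdr reached 17.4 CPM in G328V replicate 1 and 9.58 CPM in WT replicate 3. Tek, Vwf and Emcn did not exceed 1.58, 2.43 and 0.536 CPM. Of 12 endothelial genes listed, 10 were in the table, 9 were tested and 0 called by edgeR or DESeq2, with 0 at an unadjusted edgeR p under 0.05 and a median log2 difference of 0.27. Their summed level was 45.6 to 103 CPM in G328V and 11.9 to 74.4 CPM in WT, most of it Flt1, a VEGF receptor, in G328V. Cdh5, encoding VE-cadherin, was at 0.0163 to 1.09 CPM in G328V, against 0.154, 12.1 and 38.7 CPM in the WT cultures. Esam did not exceed 0.366 CPM in G328V and 1.10 CPM in WT. Mural and fibroblast genes summed to 67.8 to 300 CPM in G328V and 8.65 to 508 CPM in WT, with 0 of 8 tested genes called. Rgs5, a pericyte gene and the 1 of these with an unadjusted edgeR p under 0.05, had 7.21, 1.33 and 299 CPM in G328V, against 2.14, 0.108 and 1.87 CPM in WT. Col3a1 reached 46.1 CPM in G328V and 455 CPM in WT, in replicate 70A, and Tagln did not exceed 0.293 CPM in any library. The part of these genes in the Acvrl1 and Eng values was not tested, and in bulk RNA fewer cells of a type and less RNA per cell cannot be told apart.

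Bmpr2, the BMP type II receptor that is mutated in inherited human pulmonary hypertension, overlapped between the groups, with G328V replicate 2 the highest library. Bmpr2 spans chromosome 1 from 59763400 to 59879014, plus strand. It had 107, 258 and 89.0 CPM across the G328V cultures, against 179, 99.6 and 126 CPM across the WT cultures. G328V replicate 2 was the highest library for Bmpr2 as it was for Bmpr1a, Acvr1b, Acvrl1 and Acvr2b, while it was the lowest for Acvr2a and Bmpr1b. The log2 difference of Bmpr2 was 0.17 ± 0.48 (SE), and it was -0.46 without G328V replicate 2 and -0.032 without WT replicate 3.

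Acvr2a, an activin type II receptor, was the steadiest of the 8 genes. It lies on chromosome 2 from 48814109 to 48903269, plus strand. It had 40.8, 28.2 and 32.9 CPM across the G328V cultures, against 40.5, 32.5 and 36.5 CPM across the WT cultures, a 1.45-fold range over 6 libraries. Only 7.10% of tested genes had a smaller within-group SD of log2 CPM. The log2 difference was -0.10 ± 0.27 (SE), with a 95% interval of -0.75 to 0.54, and it was 0.013 without G328V replicate 2. Exons of Orc4 on the other strand overlap 446 bases (7.84%) of its exons, so a part of its counts may belong to Orc4.

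Acvr2b, the second activin type II receptor, had its 3 highest levels in the 3 G328V cultures. Acvr2b spans chromosome 9 from 119402118 to 119434995, plus strand. It had 7.29, 9.05 and 5.60 CPM across the G328V cultures, against 2.74, 1.95 and 4.86 CPM across the WT cultures. WT replicate 70A came nearest to the G328V libraries, at 4.86 CPM against 5.60 CPM in G328V replicate 3. The means were 7.31 ± 1.73 CPM in G328V and 3.18 ± 1.51 CPM in WT (SD, n = 3 each), and these levels rest on 1029 to 1250 counts in G328V and 337 to 846 counts in WT.

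The log2 difference of Acvr2b was 1.199 ± 0.62 (SE) in edgeR's test (unadjusted p = 0.0989, adjusted p = 0.997), and its 95% interval of -0.30 to 2.70 included 0. The groups did not overlap, so leaving out libraries could hardly turn the sign of this difference, and the other settings refit the same libraries. The difference of Acvr2b stayed positive, at 0.91 to 1.63, in all 23 alternative settings. DESeq2 called it without WT replicate 70A (adjusted p = 0.0374), within a range of 0.0374 to 1 over those settings. Within libraries, the log2 ratio of Acvr2b to Acvr2a counts was -2.49, -1.64 and -2.55 across the G328V cultures, against -3.89, -4.06 and -2.91 across the WT cultures. Every G328V ratio lay above every WT ratio, and the means differed by 1.39 (two-sided exact permutation p = 0.1, 0.4 adjusted over the 4 ratios computed). No split of 3 against 3 can give a p under 0.1 in this permutation test. Acvr2a varied only 1.45-fold over the libraries, so this ratio largely restates the Acvr2b levels and is no separate observation. The ratios of Bmpr1b to Bmpr1a and of Bmpr2 to Acvr2a overlapped between the groups and differed by -1.96 (exact permutation p = 0.7) and 0.16 (exact permutation p = 1). For these ratios 0.5 counts were added to each gene, which bears on the 0 counts of Bmpr1b in G328V replicate 2. Without that library the difference was 1.11 for Bmpr1b to Bmpr1a and -0.44 for Bmpr2 to Acvr2a.

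**Figure D2:**
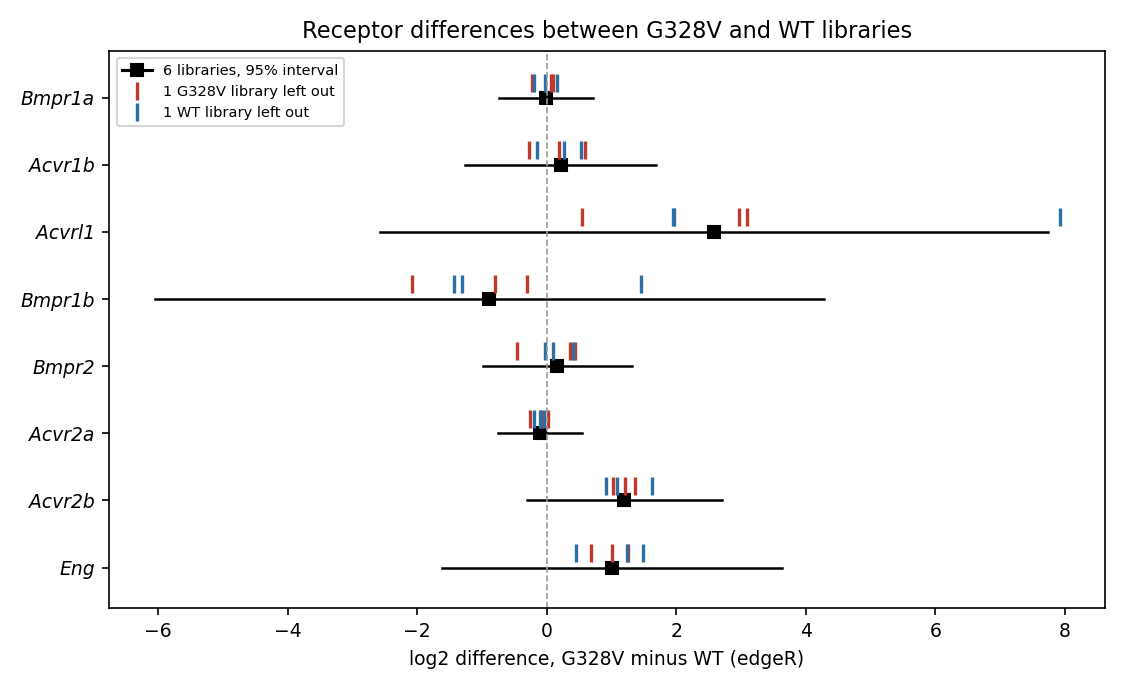
Log2 difference, G328V minus WT, of each receptor gene from edgeR (black squares) with its 95% interval (lines); short ticks give the same difference with 1 G328V library (red) or 1 WT library (blue) left out. All 8 intervals include 0, and the ticks of Acvr2b, Acvrl1 and Eng stay on the positive side.

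Per kilobase of exon, the median levels over the 6 libraries ran from Bmpr1a at 43.0 CPM through Acvr1b at 11.8, Bmpr2 at 6.45, Acvr2a at 6.10, Acvrl1 at 1.35, Acvr2b at 1.33 and Eng at 0.778 to Bmpr1b at 0.148. Bmpr1a was separated from the next gene in all 6 libraries. Each later gene had a range that overlapped that of its neighbour, and Bmpr2 exceeded Acvr2a, and Acvrl1 exceeded Acvr2b, in 3 of 6 libraries each. Exon lengths came from GENCODE M21 and may differ from the annotation used for counting. With the longest transcript in place of all exons, Acvr2b at 1.65 CPM per kilobase lay above Acvrl1 at 1.58.

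Among 7 type I receptors of the family (the 4 members with Acvr1, Acvr1c and Tgfbr1), Bmpr1a made up 18.2% to 38.2% of the summed level per kilobase in G328V and 40.7% to 70.6% in WT. Acvr1 made up 34.5% to 65.7% in G328V and 11.04% to 24.1% in WT. With Acvr1 left out, the Bmpr1a share was 53.0% to 73.3% in G328V and 52.6% to 79.4% in WT, so the ranges overlapped. The Acvr1 share in G328V rests on 1.13 to 1.21 HTSeq counts per Cufflinks fragment, against 1.94 in WT, and all 8 members had ratios of 1.6 to 2.01 where both tables held counts. By Cufflinks fragments the Acvr1 share in G328V would thus be higher, and the Bmpr1a share in G328V lower. Among 4 type II receptors (the 3 members with Tgfbr2), Acvr2b made up 6.70% to 11.2% in G328V and 1.49% to 3.65% in WT. This share rests on the same Acvr2b counts as the difference given above. Tgfbr2, the TGF-beta type II receptor, made up 9.70% to 37.3% in G328V and 35.8% to 64.8% in WT.

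**Figure D3:**
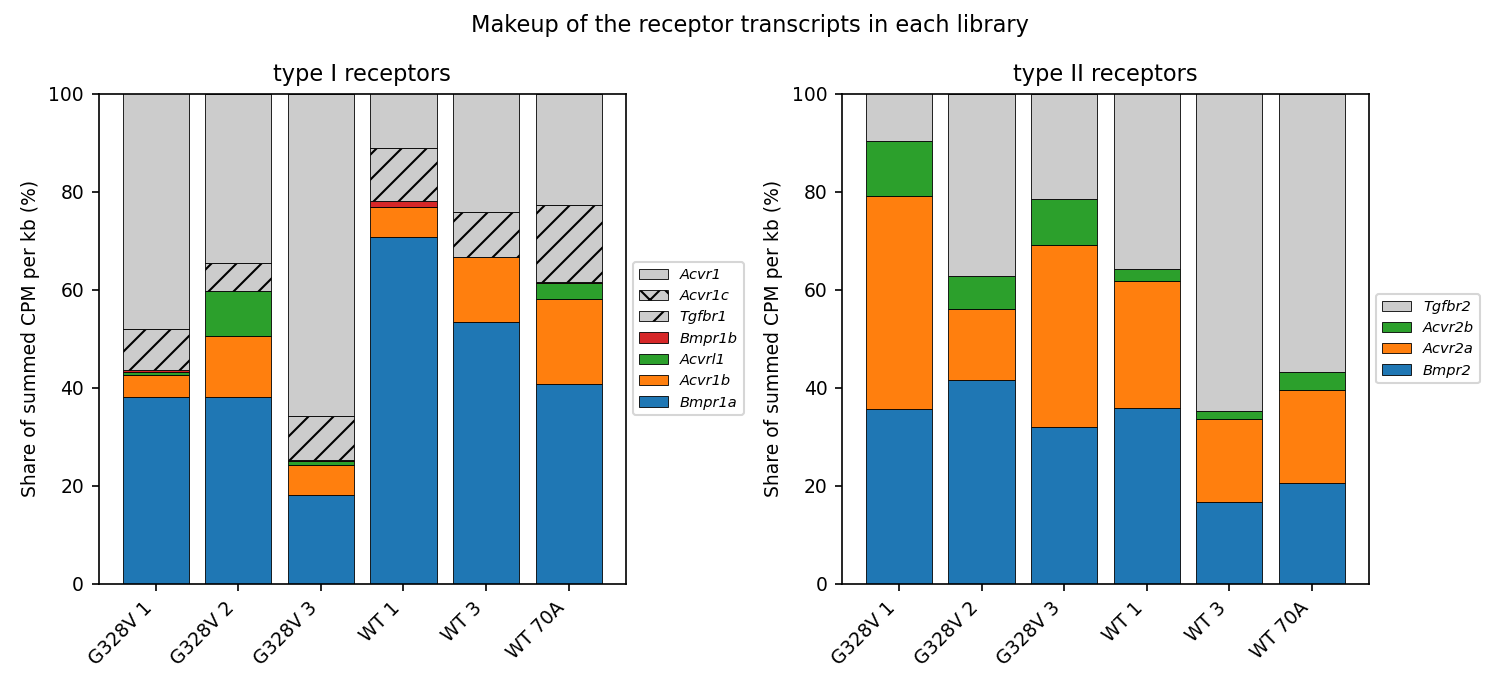
Share in percent of the summed CPM per kilobase of exon that each receptor gene took in each library, for 7 type I receptors (left) and 4 type II receptors (right), with G328V libraries before WT libraries; coloured parts are the genes described here and grey parts other receptors. The Acvr1 part is 34.5% or more in G328V and 24.1% or less in WT, and the Acvr2b part is 6.70% or more in G328V and 3.65% or less in WT.

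The spread within groups ranged widely among the 8 genes. The within-group SD of log2 CPM was 0.22 for Acvr2a, 0.35 for Bmpr1a, 0.53 for Acvr2b and 0.65 for Bmpr2, below the median of 0.67 over all tested genes. It was 0.93 for Acvr1b, 1.62 for Eng, 3.26 for Acvrl1 and 3.42 for Bmpr1b. For Acvrl1 and Bmpr1b this exceeded 92.8% and 93.7% of tested genes.

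**Figure D4:**
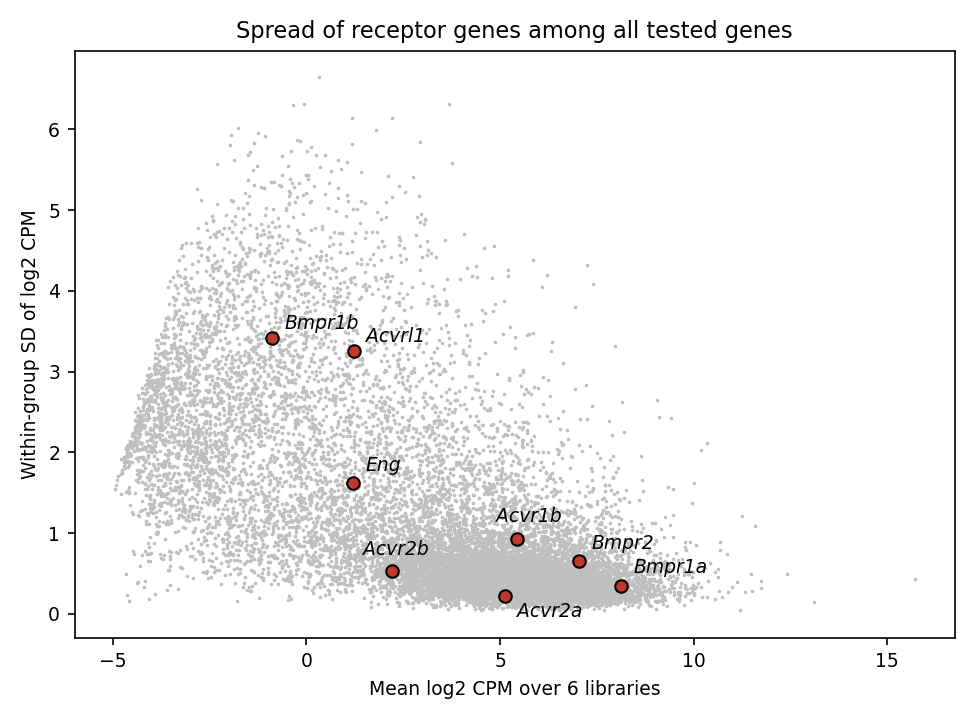
Within-group SD of log2 CPM against mean log2 CPM over the 6 libraries for 14643 tested genes (grey) and the 8 receptor genes (red). Acvr2a at 0.22 and Bmpr1a at 0.35 lie low in the cloud, and Acvrl1 at 3.26 and Bmpr1b at 3.42 lie high.

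For the 2 members with the smallest unadjusted p, Acvr2b and Acvrl1, the most similar profiles were sought among 11558 named genes with at least 1 CPM on average, by the root mean square difference of centred log2 CPM over 6 libraries. Nearest to Acvr2b were Itga7, an integrin chain, at 0.18, Pvrl1, a nectin, at 0.26 and Gnal, a G protein subunit, at 0.26. Itga7 had 68.3, 66.9 and 58.9 CPM across the G328V cultures, against 27.7, 17.6 and 39.2 CPM across the WT cultures. Nearest to Acvrl1 were Slit3, an axon guidance ligand, at 0.66, Npr3, a natriuretic peptide receptor, at 1.01 and Ctsc, a lysosomal protease, farther off. Slit3 had 5.40, 93.2 and 13.4 CPM in G328V, against 0.406, 0.0512 and 6.997 CPM in WT. These neighbours were picked from many genes over few libraries, and no test was made.

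In the other receptors and co-receptors of the family, 0 of 9 tested of 11 listed genes passed edgeR's test, with 3 at an unadjusted p under 0.05, all higher in G328V. These were Bambi, Acvr1c and Acvr1, the gene whose genotype defines the groups. Over all genes, 1.88% were higher and 2.17% lower at that edgeR threshold, and DESeq2 called 1.05%. The same shares apply to the lists below. DESeq2 called 2, Acvr1 and Bambi. Bambi, a pseudoreceptor that BMP signalling induces, had 23.8, 69.4 and 73.6 CPM in G328V, against 11.3, 8.09 and 14.2 CPM in WT. Acvr1c, another activin-type receptor, was counted 63, 36 and 20 times in G328V, against 0, 0 and 1 times in WT.

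Among ligands, 15 of 22 listed genes were tested, 0 passed edgeR's test or DESeq2's, and the median log2 difference was -0.38. Inhba, the activin A subunit and the 1 ligand with an unadjusted edgeR p under 0.05, had 2.69, 1.21 and 1.44 CPM in G328V, against 0.699, 54.7 and 29.0 CPM in WT. WT replicate 1 was the lowest of all 6 libraries for Inhba, and the groups overlapped. Gdf6 reached at most 0.108 CPM in G328V, against 0.149 to 2.39 CPM in WT. Bmp6 ranged over 0.166 to 0.385 CPM in G328V, against 0.369 to 3.24 CPM in WT. Gdf2 and Bmp10, which encode the ligands of the Acvrl1 product, were listed but are absent from the deposited HTSeq counts. No gene in those counts had 0 in all 6 libraries, so such genes may have been left out. Whether Gdf2 and Bmp10 had 0 counts or were not counted is not known here.

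Of 14 listed antagonists, 11 were tested and 0 passed edgeR's test, with 2 at an unadjusted p under 0.05, both higher in G328V, and 1, Sost, called by DESeq2. Sost, a secreted inhibitor, was counted 180, 46 and 46 times in G328V, against 0 times in each WT culture. Nog had 4.97, 13.9 and 1.10 CPM in G328V, against 0.203, 0.335 and 0 CPM in WT, and Bmper had 6.34, 20.3 and 22.3 CPM in G328V, against 7.13, 0.381 and 4.77 CPM in WT. All 18 SMADs and receptor regulators were tested, 0 passed edgeR's test and 4 had an unadjusted p under 0.05, with Smad9 and Smad6 higher and Smad2 and Zfyve16 lower. DESeq2 called Smad6 and Smad9. Zfyve16, an endosomal SMAD anchor, had 23.3, 18.9 and 32.7 CPM in G328V, against 45.3, 46.8 and 35.1 CPM in WT, and the SMAD list's median was -0.12. Fkbp1a, whose product holds type I receptors inactive, was at 311 to 395 CPM in G328V and 321 to 374 CPM in WT.

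Genes that BMP signalling is known to induce had a median log2 difference of 2.61 over 10 tested. Of these, 6 had an unadjusted edgeR p under 0.05, all higher in G328V, against 1.88% of all tested genes. The FDR was passed by 0, and DESeq2 called 2, Smad6 and Msx2, against 1.05% of the genes it tested. Smad6 is also on the SMAD list above and is counted in both. The summed level of the BMP-induced genes was 508 to 1334 CPM in G328V and 187 to 207 CPM in WT. The summed levels of the 4 type I members were 281 to 505 CPM in G328V and 291 to 385 CPM in WT, and those of the 3 type II members 128 to 295 CPM in G328V and 134 to 222 CPM in WT, so both overlapped.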

How the data were processed

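RNA-seq of 6 mouse neurosphere cultures, 3 G328V and 3 WT by genotype label, was used. Per the labels' protocols, total RNA was ribodepleted and sequenced on a HiSeq4000 with a stranded kit. Per the submitters' processing notes, the build was mm10 and the tools included Bowtie2 2.2.1, TopHat2 2.0.13 and FastQC 0.11.3. How strand was used in counting is not given. The authors deposited whole-number HTSeq counts per gene symbol for 17551 genes and estimated counts of fragments from Cufflinks for 23107 genes, neither normalized. The 0 HTSeq rows that name no gene needed no removal. The design text gives 3 biological replicates per group. The labels do not say whether replicates share an animal, so the spread behind each p-value may not cover differences between animals.

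The 8 members, gene lists and tests were chosen with earlier results of these data known. The main test was edgeR 4.0.16 under R 4.3.3 (quasi-likelihood F-test, legacy robust fit, TMM, filterByExpr minimum count 10), with DESeq2 1.42.0 and limma 3.58.1 as alternatives, and estimated counts were rounded first. P-values were adjusted over all tested genes. Standard errors came from the F statistic, intervals are 95%, and log2 CPM used a prior count of 2. The 3 tools were tested on simulated data. Ratios of 2 genes were compared by exact permutation. Named genes were all members and, from each list described, calls or otherwise up to 3 with the smallest p. Smad2, Fkbp1a, Tgfbr2, Pecam1, Tie1, Sox2, Vim and Hes5 were chosen after their values were seen. So were Msi1, Slc1a3, Sox10, Cspg4, Egfl7, Kdr, Tek, Vwf, Emcn, Aqp4, S100b, Slc1a2, Aldh1l1 and Gja1. Words of 50 bases shared between members and other GENCODE M21 transcripts made up 0% to 6.98% of each member's, and 0 were shared between members.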

Additional observations from a re-analysis of the deposited data

How the results depend on the processing

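The count of genes called over all genes was 0 under every edgeR setting and limma-voom, 174 with DESeq2, and with DESeq2 277, 408 and 333 without G328V replicates 1, 2 and 3, and 731, 272 and 364 without WT replicates 1, 3 and 70A. The count of receptor genes called was 0 under every setting except DESeq2 without WT replicate 70A, where it was 2; leaving out a library with edgeR gave 0 to 0 for both counts. The DESeq2 fits without a library were added after the data were seen. Of 184 values of single receptor genes under alternatives, 24 turned direction, none of them of Acvrl1, Acvr2b or Eng. For Acvr2b, whose groups did not overlap, leaving out a library could hardly have turned the direction. Leaving out 1 library gave -0.27 to 0.60 for Acvr1b, -0.23 to 0.15 for Bmpr1a, -2.08 to 1.46 for Bmpr1b, -0.26 to 0.013 for Acvr2a and -0.46 to 0.43 for Bmpr2. With DESeq2 these ranges were -0.29 to 0.58, -0.25 to 0.17, -2.12 to 1.47, -0.28 to -0.0098 and -0.49 to 0.42, and turned direction also at -0.12 for Acvr1b without WT replicate 1, at 0.035 and 0.085 for Bmpr1a without G328V replicates 1 and 3, and at -0.045 for Bmpr2 without WT replicate 3. For the ratios of Bmpr1b to Bmpr1a and Bmpr2 to Acvr2a they were -3.79 to 1.11 and -0.44 to 0.47, and for Acvr2b to Acvr2a and Eng to Acvrl1 1.10 to 1.75 and -4.69 to -0.86. Total-count scaling moved the median of all genes to 0.12 and gave 0.014 for Acvr2a and 0.095 for Bmpr1a. Replicate numbers 1 and 3 occur in both groups, and deviations from the group means correlated by 0.18 and 0.23 across genes within these pairs, which are too few to show pairing. A replicate block on these 4 libraries gave 0 calls, 0.013 for Acvr2a, 0.75 for Bmpr1b, -0.45 for Bmpr2, 2.70 for Eng, and 1.16 and -0.47 for the ratios of Bmpr1b to Bmpr1a and Bmpr2 to Acvr2a. Without the block these 4 libraries gave 0.013 for Acvr2a, -0.51 for Bmpr2, -0.73 for Bmpr1b and 1.75 for Eng, so for Bmpr1b the block itself turned the direction. The cause of these turns was not tested. Bmpr1b, and Acvrl1 in WT replicates 1 and 3, rest on few counts.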
